A study of Mus musculus with 7 samples.

Results

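The major urinary protein genes are a tightly packed family on mouse chromosome 4, and 8 of them (*Mup1*, *Mup2*, *Mup3*, *Mup7*, *Mup11*, *Mup17*, *Mup20* and *Mup21*) were followed here by gene symbol, out of 23347 genes in the count table. All 8 passed the filter on low counts, as did 15179 genes in all. RNA was taken from the whole livers of 7 male mice on a C57BL/6 background, with 1 library per mouse. The animals were 6 to 8 weeks old when the CDAHFD began, a high-fat diet of defined amino acids that lacks choline, and they received it for 15 weeks. This diet gives fatty, inflamed liver without obesity. The 4 controls were *B4galt1* flox/flox littermates, which the sample labels call WT, and carried both floxed alleles without Cre. The 3 other mice, labelled *B4galt1* hep-/- (B4galt1-HKO in the sample labels), carried the same floxed alleles and *Alb-Cre*, a Cre driven by the albumin promoter that deletes the gene in hepatocytes and leaves it in the other liver cells. *B4galt1* encodes a galactosyltransferase that adds galactose to the glycans of glycoproteins. Chow-fed mice were not analysed here.

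Major urinary proteins are small lipocalins, barrel-shaped proteins with a pocket that binds volatile pheromones. In male mice they are among the most abundant secreted products of the hepatocyte, pass from blood into urine, and release their scent slowly from urine marks. Their genes respond to growth hormone, glucocorticoid, thyroid hormone and testosterone, and adult males, whose growth hormone comes in pulses that activate STAT5B, express more of them than females. *Mup20* encodes darcin, the male urinary protein that attracts females. The comparison asks how the RNA of these genes differed between livers of the 2 labelled genotypes under the same diet.

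*B4galt1* itself was measured first, since it checks the labels. Its level was 48.7, 53.0, 49.2 and 51.7 CPM (the count as a share of the library, scaled by the trimmed mean of M values, TMM) in the flox/flox mice and 28.4, 23.9 and 53.7 CPM in the mice labelled hep-/-. Replicate 3 of the latter group was above every control, and the difference over all mice was not called (log2 fold change -0.52, SE 0.26, edgeR adjusted p = 0.181). Directions are therefore given for libraries labelled hep-/-. Libraries held 37838654 to 39668509 counts in flox/flox mice and 30608271 to 34586588 in mice labelled hep-/-. Mitochondrially encoded genes took 3.88% to 8.0% of counts in the former and 14.4% to 22.6% in the latter, and their part in the differences below was not tested beyond a fit without these 13 genes, which called the same number of family members, 3. In RNA of whole liver, fewer cells of a type and less RNA per cell cannot be told apart.

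Many genes inside the cluster are near copies of each other, which limits how well their reads can be assigned. Over the aligned coding sequence, *Mup1*, *Mup2*, *Mup7*, *Mup11* and *Mup17* (called the central genes below) were 98.4% to 99.4% identical in their 10 pairs. Central means inside the cluster here, from place 3 (*Mup7*) to place 16 (*Mup17*) of 22 along the chromosome. *Mup3*, *Mup20* and *Mup21*, which close the cluster, were 82.4% to 91.4% identical to the central genes and 87.1% to 94.8% identical to each other. The 60 coding bases that differ most among the 8 genes are shown to make this visible, with capitals where a base differs from *Mup1*. They run across the junction of exons 2 and 3 on the minus strand, between chr4:60500472-60501300 for *Mup1*, chr4:60068934-60069751 for *Mup7*, chr4:62085992-62086818 for *Mup3*, chr4:62052669-62053498 for *Mup20* and chr4:62149387-62150213 for *Mup21* in GRCm38, introns included.
Mup1 (also Mup2 and Mup11): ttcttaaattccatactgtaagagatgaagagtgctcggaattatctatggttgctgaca
Mup7 (also Mup17): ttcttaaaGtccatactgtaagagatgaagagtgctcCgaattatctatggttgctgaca
Mup20: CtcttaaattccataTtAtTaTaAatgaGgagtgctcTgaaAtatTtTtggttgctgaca
Mup3: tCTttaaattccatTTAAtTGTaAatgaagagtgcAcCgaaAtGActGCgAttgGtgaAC
Mup21: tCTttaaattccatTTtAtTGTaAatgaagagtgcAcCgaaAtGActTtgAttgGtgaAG
*Mup2* and *Mup11* did not differ from *Mup1* in these bases, *Mup7* and *Mup17* differed at 2, *Mup20* at 11, *Mup21* at 19 and *Mup3* at 21.

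The share of each transcript that belongs to 1 gene alone was counted in the GENCODE M21 transcripts of GRCm38. Of all 100-base windows, 97.1% of those in *Mup3* and 95.5% of those in *Mup21* occurred in no other gene's transcript. The share was 61.2% for *Mup20*, 40.6% for *Mup17*, 16.5% for *Mup11*, 12.9% for *Mup7*, 12.8% for *Mup1* and 2.66% for *Mup2*. How the counting treated reads that match several genes is not given in the sources used here. In windows of 150 bases the shares were higher, at 100% for *Mup3* and *Mup21*, 68.9% for *Mup20*, 59.6% for *Mup17*, 22.5% for *Mup7*, 21.8% for *Mup11*, 17.5% for *Mup1* and 9.25% for *Mup2*, and the read length is not given in the sources used here either. The counts of the central genes are therefore uncertain both as to which copy they came from and, if shared reads were left out, in their level, while those of *Mup3* and *Mup21* are the best separated.

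**Figure D1:**
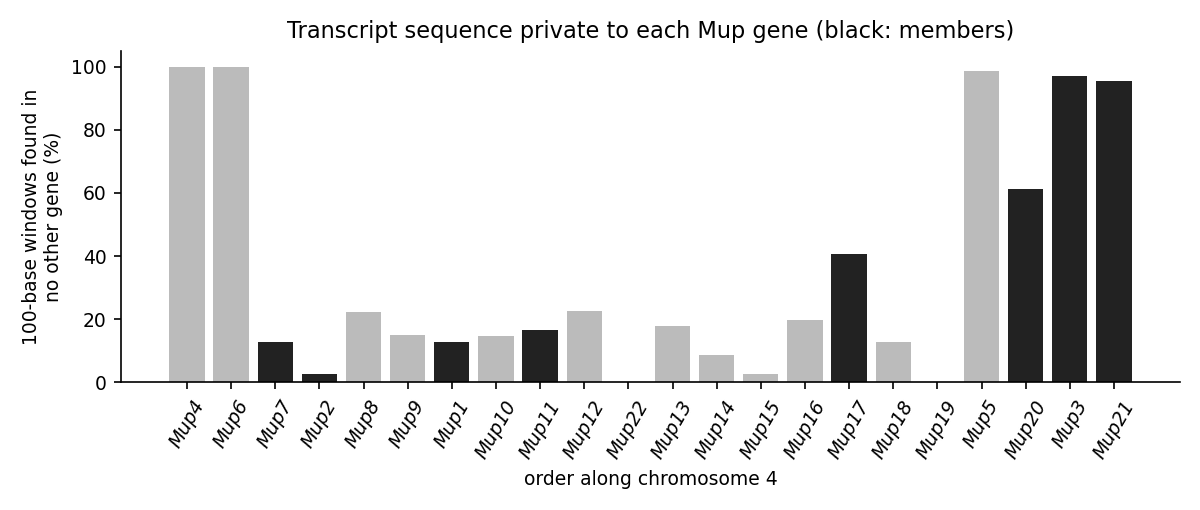
Each bar is the percentage of 100-base windows of a gene's transcript that occurred in no other gene's transcript, for the 22 numbered *Mup* genes in their order along chromosome 4, with the 8 followed here in black. *Mup3* (97.1%) and *Mup21* (95.5%) at the right end stand high, while *Mup7*, *Mup2*, *Mup1* and *Mup11* lie between 2.66% and 16.5%.

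Upstream of the genes, the RefSeq promoter windows (GRCm38.p6, around the annotated start) were matched for 6 of the 8 genes. All 6 held 2 copies of ATTGAT, the core recognised by the liver factor HNF6, both on the strand where it reads ATCAAT along the gene. The copies started 63 bases apart in the central genes and 62 apart in *Mup3* and *Mup21*. They are printed for 4 genes, a called and an uncalled gene of each kind, and any bearing of the copies on the calls was not tested. ATCAAT is in capitals, and the stretches run 5′ to 3′ along the gene, all on the minus strand of chromosome 4.
Mup7, chr4:60070477-60070577: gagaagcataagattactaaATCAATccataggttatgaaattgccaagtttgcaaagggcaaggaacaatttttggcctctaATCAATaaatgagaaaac
Mup17, chr4:61595963-61596063: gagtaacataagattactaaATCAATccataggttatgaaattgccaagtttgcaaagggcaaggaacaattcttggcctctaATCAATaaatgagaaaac
Mup21, chr4:62150918-62151017: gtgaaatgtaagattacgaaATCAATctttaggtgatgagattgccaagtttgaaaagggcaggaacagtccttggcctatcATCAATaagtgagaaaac
Mup3, chr4:62087400-62087499: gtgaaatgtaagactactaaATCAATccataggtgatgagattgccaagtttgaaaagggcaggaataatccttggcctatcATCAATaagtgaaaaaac
Over these stretches *Mup7* differed from *Mup17* at 3 of 101 bases, and *Mup21* from *Mup3* at 7 of 100. The annotated start of *Mup7* lies nearer to the pair, whose copies began 82 and 19 bases before it, against 211 and 148 in *Mup17*, 188 and 125 in *Mup11*, 216 and 153 in *Mup2*, 162 and 100 in *Mup3*, and 156 and 94 in *Mup21*. ATTGAT, read on both strands, occurred in 14 of 14 numbered *Mup* windows and in 7.54% of 32851 windows of all genes. The STAT pattern TTCNNNGAA, read on both strands, was in 0 of the 6 windows and in 8.3% of all windows. The HNF4 pattern CAAAGTCCA was in 0 of 6 and 0.475% of all, and TATAAA in 0 of 6 and 13.6% of all, on either strand. The windows of *Mup2*, *Mup3*, *Mup11*, *Mup17* and *Mup21* do hold TATATAAG, a TATA-like stretch that the letters TATAAA do not match. The *Mup7* window does not hold it. These are matches of letters within the windows and say nothing of binding.

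Of the 8 genes, 3 were lower in livers labelled hep-/- (*Mup1*, *Mup7* and *Mup21*), 0 were higher and 5 were not called. A call needed a log2 fold change beyond 0.58 on either side and an adjusted p below 0.05. Among all tested genes 7.83% were called lower, 8.0% higher and 15.8% in either direction. At an unadjusted p under 0.05, 4 of the 8 were lower and 0 higher, against 16.1% lower and 16.8% higher of all tested genes. DESeq2 also called 4 lower and 0 higher, against 10.2% and 11.2% of the genes it tested. Scaling by library totals alone shifted the median of all genes by -0.12 and made 73.3% of all calls lower, against 49.5%, and it called 4 of the 8 lower and 0 higher, against 11.7% lower and 4.28% higher of all genes. *Mup1*, *Mup2* and *Mup7* passed the filter on low counts through the flox/flox mice alone. With at least 10 counts required in every mouse, 5 of the 8 were tested, 1 (*Mup21*) was lower, and the median log2 fold change was -0.80. *Mup1*, *Mup7*, *Mup11* and *Mup21*, 4 of the 8, did not overlap between groups, with every mouse labelled hep-/- below every control, as was so for 15.0% of all tested genes. The log2 fold change was below 0 for 7 of 8 (*Mup2* too under the scaling by totals), with a median of -1.10, against a median of 0.02 over all tested genes.

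**Figure D2:**
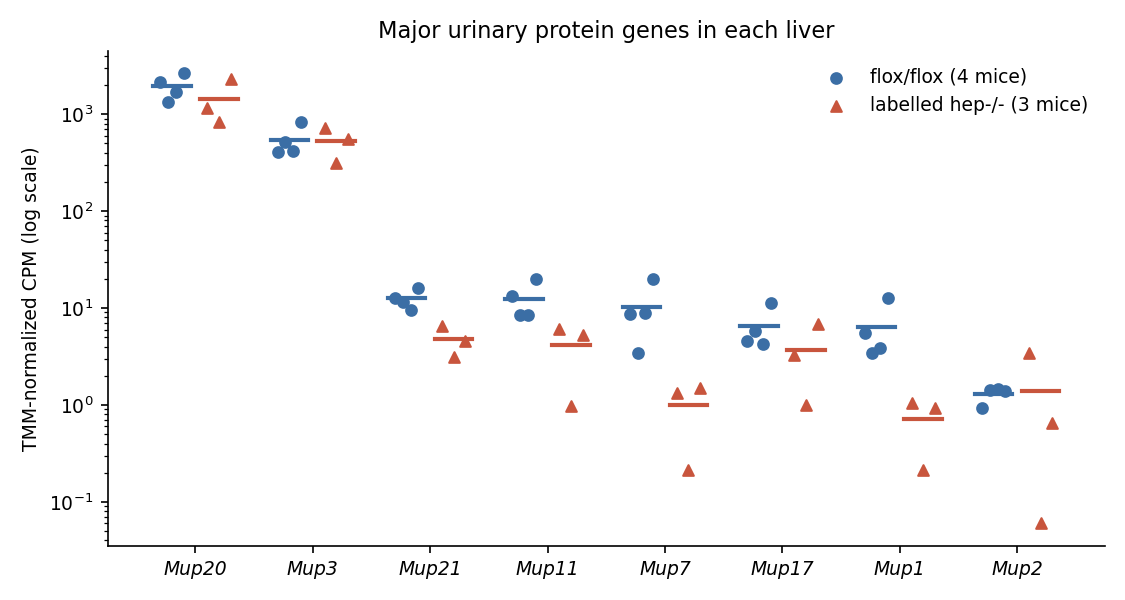
TMM-normalized CPM on a log scale for the 8 genes, ordered by their mean in flox/flox mice, with 1 point per mouse (blue circles, 4 flox/flox; red triangles, 3 labelled hep-/-) and a bar at each group mean. *Mup20* and *Mup3* lie far above the rest with overlapping groups, while the groups do not overlap for *Mup21*, *Mup11*, *Mup7* and *Mup1*.

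*Mup20* was the most abundant of the 8 genes. Its level was 2122, 1337, 1712 and 2642 CPM in flox/flox mice and 1164, 820.1 and 2299 CPM in mice labelled hep-/-. The groups overlapped, since replicate 3 of the second group was above 3 of the 4 controls (1953 ± 560 against 1428 ± 774 CPM, SD, n = 4 and 3, log2 fold change -0.45, SE 0.35, edgeR adjusted p = 0.401). Per kilobase of gene length its mean in flox/flox mice was 1926 CPM, rank 31 of 15179 tested genes. Its log2 fold change was -0.99 without hep-/- replicate 3 and -0.17 without hep-/- replicate 2.

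*Mup3*, which differs from the other members in its coding sequence and has nearly all of its transcript to itself, came next. Its level was 407.4, 519.4, 415.5 and 822.6 CPM in flox/flox mice and 715.3, 310.5 and 556.7 CPM in mice labelled hep-/-. The groups overlapped and their means lay close together (541.2 ± 194.4 against 527.5 ± 204 CPM, SD, log2 fold change -0.04, SE 0.32, edgeR adjusted p = 0.950). The spread within each group was far wider than the difference between them, and the fitted direction turned on which mouse was left out (0.24 without flox/flox replicate 4 and 0.23 without hep-/- replicate 2).

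*Mup21*, the last gene of the cluster, is the called gene whose reads are the least shared. It was measured at 12.8, 11.7, 9.61 and 16.1 CPM in flox/flox mice and at 6.53, 3.14 and 4.61 CPM in mice labelled hep-/-. All 3 of the latter lay below the lowest control, and the mean was 2.64-fold lower (12.5 ± 2.73 against 4.76 ± 1.70 CPM, SD, log2 fold change -1.40, SE 0.29, edgeR adjusted p = 0.0113). It had 410 to 571 counts in flox/flox mice and 104 to 201 in mice labelled hep-/-.

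*Mup7*, a central gene, was lower, but entered the test through the flox/flox mice alone. Its level was 8.67, 3.46, 8.81 and 19.7 CPM in flox/flox mice and 1.33, 0.21 and 1.48 CPM in mice labelled hep-/-. The highest mouse of the second group was below the lowest control, and the fitted level was 10.1-fold lower (log2 fold change -3.34, SE 0.67, edgeR adjusted p = 0.00976). The lowest library held 7 counts.

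*Mup1*, another central gene that entered the test through the flox/flox mice alone, had the same order of groups. Its level was 5.50, 3.41, 3.84 and 12.6 CPM in flox/flox mice and 1.04, 0.21 and 0.92 CPM in mice labelled hep-/-. The groups did not overlap and the fitted level was 8.75-fold lower (log2 fold change -3.13, SE 0.61, edgeR adjusted p = 0.00908). Its lowest library, hep-/- replicate 2, also held 7 counts.

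*Mup11* did not overlap between groups, yet was not called. It was measured at 13.2, 8.48, 8.50 and 20.0 CPM in flox/flox mice and at 6.04, 0.97 and 5.33 CPM in mice labelled hep-/-. The mean was 12.5 ± 5.43 CPM against 4.11 ± 2.75 CPM (SD), with a log2 fold change of -1.61 (SE 0.52, edgeR adjusted p = 0.0557), just outside the threshold. With DESeq2 it was called (log2 fold change -1.60).

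*Mup17*, the central gene with the most sequence of its own, overlapped between groups. Its level was 4.62, 5.77, 4.24 and 11.3 CPM in flox/flox mice and 3.25, 0.995 and 6.88 CPM in mice labelled hep-/-, where replicate 3 was above 3 of the 4 controls (log2 fold change -0.81, SE 0.54, edgeR adjusted p = 0.324). Without that mouse the log2 fold change was -1.62, and it was -0.35 without hep-/- replicate 2 and -0.40 without flox/flox replicate 4, not called in any of them.

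*Mup2* was the lowest of the 8 in flox/flox mice, and 2.66% of its windows are its own. It was measured at 0.92, 1.43, 1.45 and 1.38 CPM in flox/flox mice and at 3.47, 0.06 and 0.66 CPM in mice labelled hep-/-. The second group held both the highest and the lowest value, the latter from 2 counts, below the floor of 3 counts (log2 fold change 0.11, SE 0.81, edgeR adjusted p = 0.943). Without hep-/- replicate 1 the log2 fold change was -1.88.

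The same mice held the extremes in most of the 8 genes. Replicate 2 of the mice labelled hep-/- was the lowest of its group in 8 of 8 genes, and replicate 4 of the flox/flox mice was the highest of its group in 7 of 8, the exception being *Mup2*. In flox/flox mice the coefficient of variation was 67.4% for *Mup1*, 67.3% for *Mup7*, 50.4% for *Mup17*, 43.3% for *Mup11*, 35.9% for *Mup3*, 28.7% for *Mup20*, 21.8% for *Mup21* and 19.5% for *Mup2*.

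Summed over the 8 genes, the level was 2575, 1891, 2164 and 3546 CPM in flox/flox mice and 1901, 1136 and 2876 CPM in mice labelled hep-/-. The groups overlapped (2544 ± 724.8 against 1971 ± 871.8 CPM, SD, log2 ratio of means -0.37). In the deposited counts this sum was made up almost wholly of *Mup20* and *Mup3*, and genes with few private windows would be understated in it if shared reads were left out. Summed over the 5 central genes alone, the level was 32.9, 22.6, 26.9 and 65.0 CPM in flox/flox mice and 15.1, 2.44 and 15.3 CPM in mice labelled hep-/-. These sums did not overlap, and the mean was 3.36-fold lower in the latter (36.8 ± 19.2 against 10.9 ± 7.36 CPM, SD). The central sum still depends on whether reads shared among the copies were counted. It was formed after the values were seen and is given without a test.

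**Figure D3:**
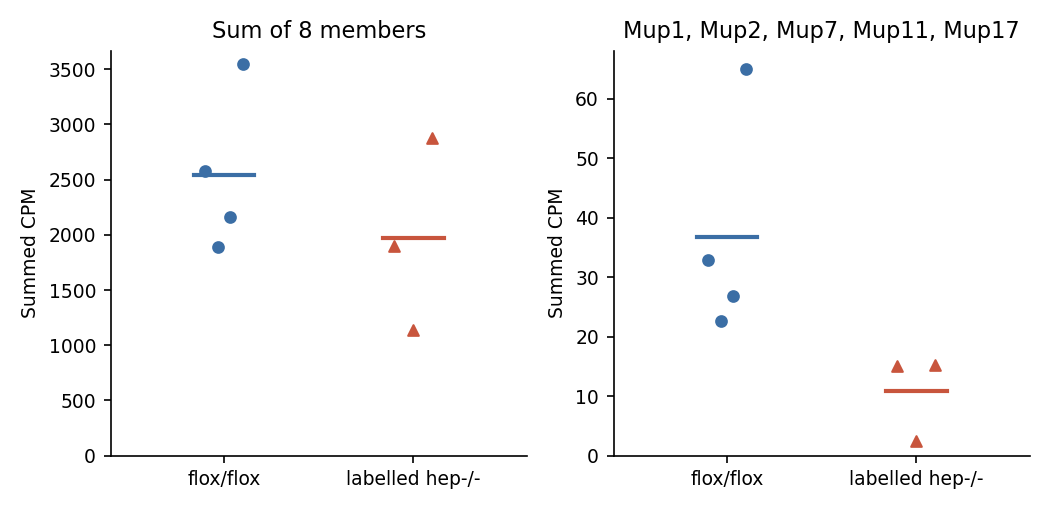
Summed TMM-normalized CPM per mouse, with 1 point per mouse and a bar at each group mean. Left, the sum of all 8 genes, in which the 4 flox/flox mice (1891 to 3546 CPM) and the 3 mice labelled hep-/- (1136 to 2876 CPM) overlap. Right, the 5 central genes, in which every flox/flox mouse (22.6 to 65.0 CPM) lies above every mouse labelled hep-/- (2.44 to 15.3 CPM).

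The make-up of the 8 genes was compared per kilobase of gene length, as counted. *Mup20* gave 68.5% to 80.9% of the total in flox/flox mice and 58.7% to 78.2% in mice labelled hep-/-, and *Mup3* gave 17.2% to 29.6% and 21.0% to 40.1%. The 5 central genes together gave 1.23%, 1.13%, 1.18% and 1.74% in the former and 0.734%, 0.206% and 0.512% in the latter. *Mup21* gave 0.583% to 0.803% and 0.210% to 0.442%. The shares of *Mup20* and *Mup3* overlapped between groups, whereas those of the central genes and *Mup21* did not.

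Ratios within a library carry no scaling between mice. The log2 ratio of *Mup7* to *Mup3* levels in CPM was -5.55, -7.23, -5.56 and -5.38 in flox/flox mice and -9.07, -10.52 and -8.55 in mice labelled hep-/-. That of *Mup21* to *Mup3*, both with nearly private transcripts, was -5.00, -5.48, -5.43 and -5.67 against -6.78, -6.63 and -6.92. In both ratios every mouse labelled hep-/- was below every control. The ratio of *Mup20* to *Mup3* overlapped, at 1.36 to 2.38 in flox/flox mice and 0.70 to 2.05 in mice labelled hep-/-. These pairs were chosen after their values were seen, and no test was made.

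The count table held 21 numbered *Mup* rows. Of the 13 that are not among the 8, 12 were tested, and *Mup5* had 2 counts in 1 flox/flox mouse and 0 elsewhere. The 12 had fold changes below 0 in 12 of 12, with a median of -1.04. By edgeR 3 were lower and 0 higher, as by DESeq2, and 5 were lower and 0 higher at an unadjusted p under 0.05. Over all tested genes the shares lower were 7.83% by edgeR, 10.2% by DESeq2 and 16.1% at an unadjusted p under 0.05. Between groups 4 did not overlap, with every mouse labelled hep-/- below every control, as was so for 15.0% of all tested genes. *Mup14*, also a near copy with 8.60% of windows its own, was the most abundant per kilobase after *Mup20* and *Mup3*. Its level was 59.2, 52.9, 46.7 and 124 CPM in flox/flox mice and 14.3, 4.86 and 14.2 CPM in mice labelled hep-/- (log2 fold change -2.67, SE 0.44, edgeR adjusted p = 0.00505). *Mup8* (log2 fold change -3.94, SE 0.85, edgeR adjusted p = 0.0128) was at 0.95 to 4.38 CPM in flox/flox mice and at 0.26, 0 and 0.16 CPM in mice labelled hep-/-. It passed the filter through the flox/flox mice alone, as did *Mup12*, *Mup13*, *Mup16* and *Mup19*, and its fold rests on 8, 0 and 5 counts in the mice labelled hep-/-. Its log2 fold change was -4.73 without hep-/- replicate 1, -3.35 without hep-/- replicate 2 and -3.36 without flox/flox replicate 4. With at least 10 counts required in every mouse, 5 of these 12 were tested and 2 (*Mup9* and *Mup14*) were lower.

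*Mup9* was also lower (log2 fold change -1.67, SE 0.46, edgeR adjusted p = 0.0321), but was not called without flox/flox replicate 2 (-1.60), 3 (-1.68) or 4 (-1.58). *Mup12* did not overlap and was not called (log2 fold change -1.96, edgeR adjusted p = 0.117), and ranged from -2.92 to -1.37 without single mice. The other 8 tested rows, *Mup6*, *Mup10*, *Mup13*, *Mup15*, *Mup16*, *Mup18*, *Mup19* and *Mup22*, had log2 fold changes from -1.91 to -0.06 and overlapped between groups. Of these, *Mup19* was called without hep-/- replicate 3 (-3.32) and *Mup22* without hep-/- replicate 2 (-0.99). The pseudogenes *Mup-ps12*, *Mup-ps15* and *Mup-ps16* had log2 fold changes of 0.39, 0.34 and 0.02, and none was called. Over all 21 numbered rows the summed level was 2654 ± 769.1 CPM in flox/flox mice and 2001 ± 880.8 CPM in mice labelled hep-/- (SD), and the groups overlapped.

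**Figure D4:**
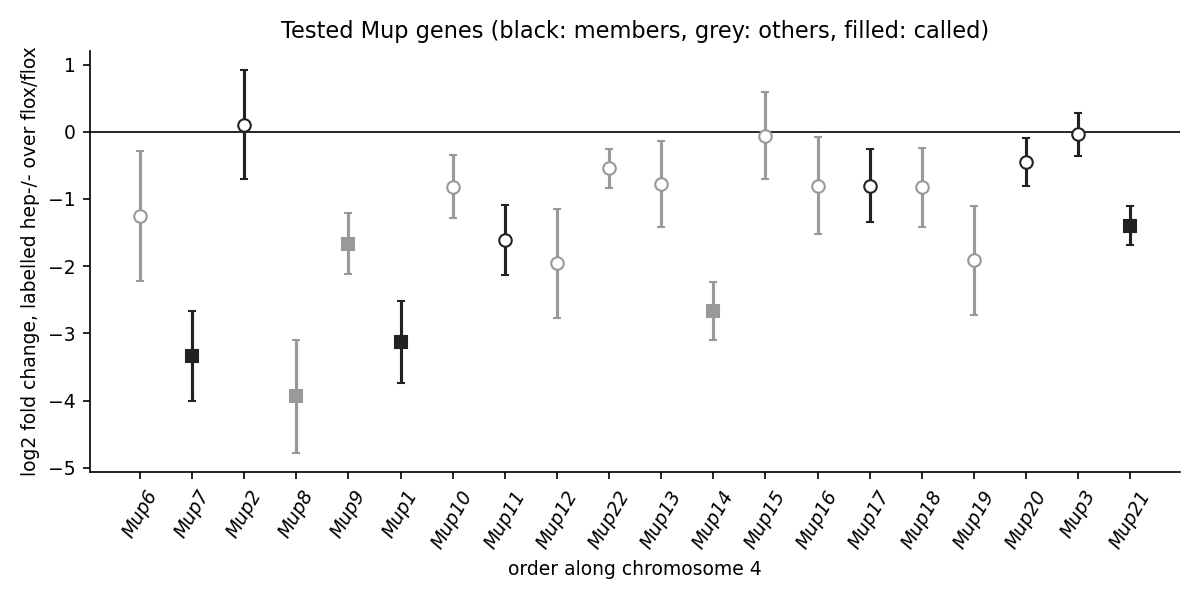
The log2 fold change (labelled hep-/- over flox/flox, edgeR) of the 20 tested *Mup* genes in their order along chromosome 4, with bars of 1 SE. Black marks the 8 genes followed here, grey the other 12, and filled squares the called genes. The called genes *Mup7*, *Mup8*, *Mup9*, *Mup1*, *Mup14* and *Mup21* take places 3, 5, 6, 7, 13 and 22 of 22 in the order of the annotation, and *Mup2* alone lies above 0, on the other side of which it falls when libraries are scaled by their totals.

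Growth hormone acts on the hepatocyte through its receptor GHR, the kinase JAK2 and STAT5B, and factors such as HNF4A, HNF6, CUX2 and ZHX2 set which sex-biased genes respond. Of 27 genes of this pathway and of *Mup* regulators, all tested, 2 were lower (7.41%), 3 were higher (11.1%) and 22 were not called, with a median log2 fold change of 0.29. The background was 7.83% and 8.0%. At an unadjusted p under 0.05, 4 were lower and 11 higher, against 16.1% and 16.8% of all tested genes. DESeq2 called 4 lower and 6 higher, against 10.2% and 11.2%. *Rxra*, a partner of nuclear receptors, was lower, at 293.5 to 383.3 CPM in flox/flox mice and 127.6 to 162.0 CPM in mice labelled hep-/- (log2 fold change -1.15, SE 0.20, edgeR adjusted p = 0.00605). *Dbp*, a circadian transcription factor, was also lower (log2 fold change -1.79, SE 0.42, edgeR adjusted p = 0.0181). Both were called without each mouse in turn.

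*Cux2*, a repressor of male-biased genes that female liver normally expresses, was higher. Its level was 1.79, 2.13, 0.80 and 2.03 CPM in flox/flox mice and 5.68, 11.7 and 3.32 CPM in mice labelled hep-/-, which did not overlap (log2 fold change 2.03, SE 0.45, edgeR adjusted p = 0.0145). Without hep-/- replicate 2 it was 1.41 and not called. *Socs2*, a STAT5 target that damps growth hormone signalling, was at 25.0, 39.1, 9.68 and 28.5 CPM in flox/flox mice and 55.0, 53.2 and 78.3 CPM in mice labelled hep-/- (log2 fold change 1.28, SE 0.36, edgeR adjusted p = 0.0333). It was not called without flox/flox replicate 1 (1.27) or 4 (1.34) or hep-/- replicate 1 (1.34) or 3 (1.07). *Cebpb*, a transcription factor of the acute phase, was higher (log2 fold change 0.94, SE 0.22, edgeR adjusted p = 0.0184), except without flox/flox replicate 2 (0.86) or hep-/- replicate 1 (0.77).

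*Ghr*, *Stat5b* and *Igf1* were not called over all 7 mice with TMM scaling, and each was called under some other setting. *Ghr* had a log2 fold change of -0.80 (SE 0.29, edgeR adjusted p = 0.0797), with 154.4 to 262.5 CPM in flox/flox mice and 71.5 to 169.2 CPM in mice labelled hep-/-. *Stat5b* had a log2 fold change of 0.52 (edgeR adjusted p = 0.0909) and *Igf1*, the endocrine target of growth hormone in liver, of 0.71 (edgeR adjusted p = 0.0909). DESeq2 called *Ghr* (-0.80) and *Igf1* (0.71), as did limma on filtered FPKM, and scaling by library totals called *Ghr* (-0.94). *Ghr* was called without hep-/- replicate 3 (-1.13), *Igf1* without flox/flox replicate 4 (0.93) and *Stat5b* without flox/flox replicate 3 (0.67). *Zhx2*, a transcription factor that regulates several hepatocyte genes, had a log2 fold change of -0.46 and *Hnf4a* of 0.12, with adjusted p of 0.273 and 0.730.

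Other genes that male liver expresses more than female liver were compared with the family. Of 20 listed, 17 were tested, of which 10 were lower (58.8%), 0 were higher and 7 were not called by edgeR (13 lower and 0 higher at an unadjusted p under 0.05, and 12 and 0 by DESeq2), with 16 of 17 below 0 and a median of -1.37 on the log2 scale. Over all tested genes 7.83% were lower by edgeR, 16.1% at an unadjusted p under 0.05 and 10.2% by DESeq2. Of the 17, 4 passed the filter on low counts through the flox/flox mice alone. With at least 10 counts required in every mouse, 13 were tested, 9 were lower and 0 higher, and the median was -1.24. *Cyp2d9*, a male-biased steroid hydroxylase, was at 357.7, 123.4, 207.9 and 246.5 CPM in flox/flox mice and at 33.6, 29.7 and 51.2 CPM in mice labelled hep-/- (log2 fold change -2.62, SE 0.35, edgeR adjusted p = 0.00283). *Cyp4a12a*, a fatty acid hydroxylase, was at 19.1 to 49.9 CPM against 3.83 to 5.36 CPM (log2 fold change -2.85, SE 0.36, edgeR adjusted p = 0.00236), and its near copy *Cyp4a12b* had a log2 fold change of -2.73. The peroxisomal gene *Nudt7* fell by 1.46 on the log2 scale. These 4 were called without each mouse in turn.

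The other 6 called genes of the list lost the call without at least 1 mouse. They were *Slco1a1*, an organic anion transporter (log2 fold change -3.54), *Ugt2b38* (-3.40), *Cyp7b1*, an oxysterol hydroxylase (-1.39), the complement gene *C6* (-1.24), *Ces2e* (-1.01) and *Egfr*, the epidermal growth factor receptor gene (-0.96). Without hep-/- replicate 3 the log2 fold change was -5.78 for *Slco1a1* and -6.52 for *Ugt2b38*, and both passed the filter through the flox/flox mice alone. The count of 10 became 6 without flox/flox replicate 2, 4 without flox/flox replicate 4, 4 without hep-/- replicate 1 and 6, of which 1 was higher, without hep-/- replicate 2. The summed level of the list was 1161 to 1618 CPM in flox/flox mice and 449.0 to 802.6 CPM in mice labelled hep-/-, without overlap.

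Genes that female liver expresses more gave calls in both directions. Of 26 listed, 19 were tested, of which 6 were higher (31.6%), 1 was lower and 12 were not called, with a median log2 fold change of 1.0. Over all tested genes 8.0% were higher and 7.83% lower. *Sult2a1* and *Cyp3a44* passed the filter through the mice labelled hep-/- alone. With at least 10 counts required in every mouse, 13 genes of the list were tested, of which 2 were higher (*Cyp2a4* and *Cyp2b9*) and 3 lower (*Abcd2*, *Atp6v0d2* and *Ntrk2*). That filter leaves out genes near 0 in flox/flox mice, and *Abcd2* and *Atp6v0d2* lay just outside the threshold without it (edgeR adjusted p = 0.0527 and 0.0504). *Cyp2b13*, a female-biased cytochrome P450, was at 0.18 to 1.10 CPM in flox/flox mice and at 11.2 to 19.5 CPM in mice labelled hep-/- (log2 fold change 4.70, SE 0.46, edgeR adjusted p = 0.000654). *Sult2a1*, a sulfotransferase of steroids and bile acids, was at 0.03 to 0.80 CPM against 12.6 to 33.9 CPM (log2 fold change 5.90, SE 0.63, edgeR adjusted p = 0.00141), and *Cyp2a4* at 12.3 to 39.1 CPM against 127.4 to 280.2 CPM (log2 fold change 3.01, SE 0.38, edgeR adjusted p = 0.00236). *Sult2a2* (4.40), *Cyp3a44* (2.62) and *Cyp2b9* (1.0) were also higher, and *Ntrk2* was lower (-2.09). Without flox/flox replicate 2 the log2 fold change was 5.54 for *Sult2a2* and 6.68 for *Sult2a1*. *Cyp2b9* lost the call without flox/flox replicate 3 (0.93) or 4 (1.08) or any mouse labelled hep-/- (0.96 to 1.06). Members of the *Cyp2b*, *Cyp3a* and *Sult2a* families share sequence with close copies, so the split of their counts is uncertain.

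Genes with the same protein fold, or with the same source and fate, were set beside the family. Of 14 tested genes of lipocalins and related binding proteins, 2 were lower (14.3%), 1 was higher (7.14%) and 11 were not called, with a median log2 fold change of -0.0012. Over all tested genes 7.83% were lower and 8.0% higher. *Apom*, which carries sphingosine 1-phosphate on lipoproteins, was at 105.5 to 158.2 CPM in flox/flox mice and 37.2 to 83.8 CPM in mice labelled hep-/- (log2 fold change -1.28, SE 0.28, edgeR adjusted p = 0.0140). *Fabp5* was also lower (-0.99), and *Orm3* was higher (1.5) but not without flox/flox replicate 2 (1.34) or hep-/- replicate 3 (0.78). *Rbp4*, the retinol carrier, had a log2 fold change of -0.32 and *Lcn2* of 0.42, and neither was called.

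Of 25 abundant secreted hepatocyte genes, 0 were lower and 2 were higher by edgeR (1 and 4 at an unadjusted p under 0.05, and 0 and 3 by DESeq2), *Apoc3* (log2 fold change 1.18) and *Apoc1* (1.0), and the median log2 fold change was 0.02. Over all tested genes 7.83% were lower and 8.0% higher by edgeR. The shares were 16.1% and 16.8% at an unadjusted p under 0.05, and 10.2% and 11.2% by DESeq2. *Apoc3* lost the call without flox/flox replicate 2 (1.09) or 3 (1.05) or hep-/- replicate 1 (1.05), and *Apoc1* without flox/flox replicate 1 (0.94), 2 (0.95) or 3 (0.92) or hep-/- replicate 1 (0.86), so that 0 genes of the list were called without flox/flox replicate 2 or 3 or hep-/- replicate 1. Leaving out hep-/- replicate 3 instead raised the number called to 6. When libraries were scaled by their totals alone, 3 of the 25 were lower and 2 higher, against 11.7% and 4.28% of all tested genes. The split of this list therefore rests on the scaling. *Alb* was at 75054 ± 17490 CPM in flox/flox mice and 91684 ± 21427 CPM in mice labelled hep-/- (SD), not called.

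**Figure D5:**
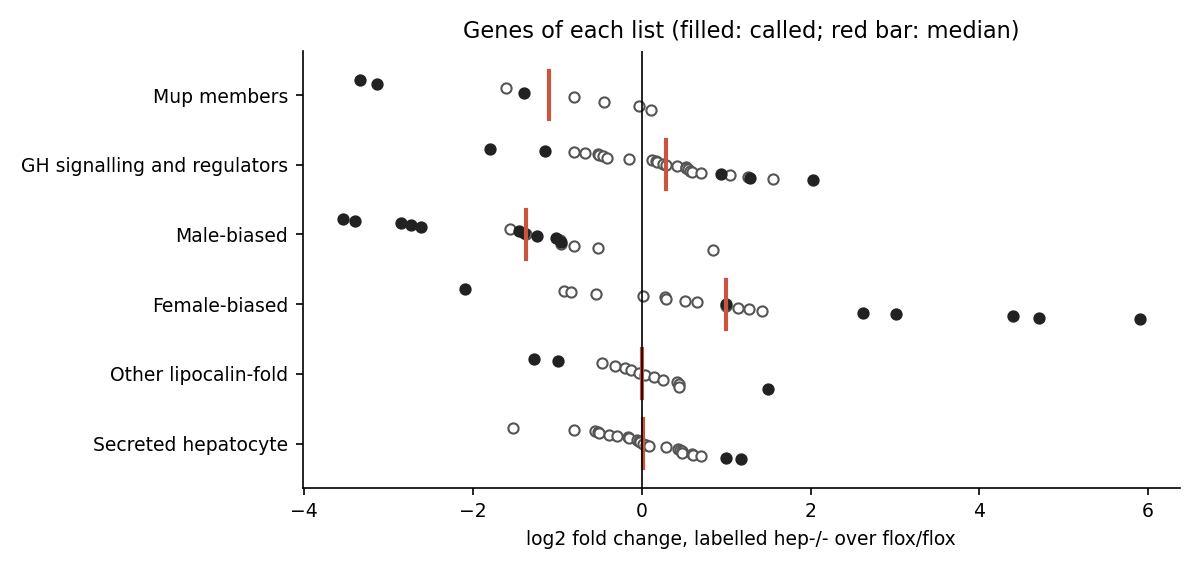
The log2 fold change (labelled hep-/- over flox/flox, edgeR) of each tested gene in 6 lists, with called genes filled and a red bar at the list's median. The medians are -1.10 for the 8 *Mup* genes and -1.37 for male-biased genes, 1.0 for female-biased genes and 0.29 for growth hormone signalling, and near 0 for other lipocalin-fold genes and secreted hepatocyte genes.

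Cell type markers were measured in the same libraries. The labelled tissue bore its markers, with a summed level of 10 hepatocyte genes of 87772 to 127747 CPM in flox/flox mice and 97916 to 155247 CPM in mice labelled hep-/-, which overlapped. *Alb* made up most of this sum, at 57197 to 90888 CPM in the former and 70086 to 112935 CPM in the latter. The log2 fold change was below 0 for 4 of the 10. Of the 10, *Cyp2e1* alone was called (log2 fold change -1.32, lower), against 7.83% of all tested genes called lower. Of 10 Kupffer cell and macrophage markers, 6 were lower and 0 were higher, against 7.83% and 8.0% of all tested genes. The other 4 were not called and overlapped between groups. The summed level of the 10 was 978.6 to 1985 CPM in flox/flox mice and 505.5 to 552.0 CPM in mice labelled hep-/-. *Gpnmb* gave the largest part of it, at 442.9 to 1098 CPM in the former and 165.3 to 250.8 CPM in the latter. The part of this difference in the *Mup* results was not tested. Among markers of stellate cells and fibroblasts (10 genes), endothelium (10), cholangiocytes (8) and lymphocytes (10), 1, 2, 0 and 0 were called, and their sums overlapped. Over all tested genes 15.8% were called in either direction. The Y-linked genes *Ddx3y*, *Eif2s3y*, *Kdm5d* and *Uty* were detected in all 7 mice and not called, and *Xist* was at 0 to 0.30 CPM.

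Genes whose profile over the 7 mice came near to the summed *Mup* level were *Atp5g3*, the nearest, *Cox7a2*, *Sbk1* and *Bst2*, among 8380 genes with a mean of at least 10 CPM. The measure was the root mean square difference of centred log2(CPM + 1), which was 0.143 for *Atp5g3*, 0.170 for *Cox7a2*, 0.187 for *Sbk1* and 0.188 for *Bst2*. *Atp5g3* and *Cox7a2* encode nuclear-encoded subunits of mitochondrial ATP synthase and cytochrome c oxidase. *Atp5g3* was at 403.4, 379.3, 434.0 and 597.5 CPM in flox/flox mice and 345.9, 215.9 and 451.9 CPM in mice labelled hep-/-, with the highest control in replicate 4 and the lowest value in hep-/- replicate 2, as for the *Mup* sum. edgeR called 0 of these 4, DESeq2 called 0, and 1 was lower at an unadjusted p under 0.05. The profiles are shared by library, so this likeness is a description of these 7 libraries.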

How the data were processed

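Liver RNA of 7 mice, 1 library each, was compared as 4 *B4galt1* flox/flox (WT in the labels) against 3 labelled *B4galt1* hep-/-. The authors extracted RNA with TRIzol and made libraries with a VAHTS Universal V6 kit. The submitters' processing notes list fastp, HISAT2, HTSeq, DESeq2, R 3.2.0 and GRCm39, and the strand setting and the treatment of reads that match several genes are not given in the sources used here. The authors deposited raw counts, whole numbers with no normalization. The authors also deposited FPKM, which equalled counts over a fixed gene length and the library total, within 1 percent, in all of the 13374 genes whose lowest count was 10 or more. The number of columns of sample values left unused was 0.

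Genes were kept by filterByExpr (minimum count 10, minimum total 15), normalized by TMM and tested with the quasi-likelihood test of edgeR 4.0.16 in R 4.3.3, with Benjamini-Hochberg adjustment over 15179 genes. Calls needed an adjusted p below 0.05 with a log2 fold change beyond 0.58 on either side. SE came from the F statistic. DESeq2 1.42.0 and limma 3.58.1 on log2 FPKM (pseudocount 1 or 0.1) were alternatives. The scripts were tested on simulated data. A level of 3 counts equalled 0.0690 to 0.0987 CPM. The p-values measure the spread between mice, and no 2 libraries agreed within counting noise. Same-numbered mice did not deviate together and the numbers were not used as a block.

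Members and lists were chosen with earlier results of these data known. Genes named were the 8 members, all other numbered *Mup* rows, *B4galt1*, called genes of each list with fixed regulators, sex-chromosome genes, and the 5 genes nearest to the summed *Mup* profile, of which 4 are named. A few genes the rule names are not reported here. *Alb*, *Rbp4*, *Lcn2*, *Abcd2* and *Atp6v0d2* were named beside them after their values were seen. Transcripts and annotation were GENCODE M21 and promoters RefSeq, both of GRCm38, so that no position comes from the counting annotation. Gene identifiers of the 8 in the table are 17840, 17841, 17842, 100041658, 100039028, 100039206, 381530 and 381531, in order of number.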

Additional observations from a re-analysis of the deposited data

Results flagged for a closer look

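In 6 of 64 genes and sums examined in the same 4 flox/flox mice, 1 mouse lay further from the others than the critical value of Dixon's test allows. Chance alone gives about 1 in 20 for independent sets of values. These 64 are not independent, since they come from the same mice and include near copies and sums of each other. *Mup2* was low in flox/flox replicate 1, at 0.92 CPM against 1.38 in the next mouse. *Mup6* was high in replicate 2, at 1.03 CPM against 0.253. In replicate 4, *Mup14* was at 124 CPM against 59.2, *Mup18* at 4.72 CPM against 2.91 and *Apoc1* at 2442 CPM against 1503. *Cyp3a44* was high in replicate 2, at 0.402 CPM against 0.234. The cause was not tested.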

How the results depend on the processing

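Calls in *Mup1*, *Mup7* and *Mup21* were kept in each analysis that left out 1 mouse (log2 fold changes of -3.50 to -2.56, -3.73 to -2.80 and -1.71 to -1.17). Of the 8 genes 1 was called with at least 10 counts required in every mouse, since *Mup1* and *Mup7* were not tested there, and 3 or 4 in the other alternatives (3 without each mouse). *Mup11* was called with DESeq2, library totals, a filter of 1 count, filtered FPKM and the replicate block (-1.98 to -1.57). *Mup19* was called with a filter of 1 count, filtered FPKM and the replicate block (-2.68 to -1.69), *Mup12* with that filter and filtered FPKM (-2.46 to -1.11) and *Mup10* with filtered log2(FPKM + 1) (-0.82). *Mup2* reversed with library totals (-0.081), log2(FPKM + 1) (-0.24, filtered or not), log2(FPKM + 0.1) (-0.95) and the replicate block (-0.89), and ranged from -1.88 to 0.67 without single mice. *Mup3* and *Mup15* reversed with the block (0.17 and 0.21) and ranged from -0.33 to 0.24 and -1.0 to 0.46 without single mice. *Hnf4a* reversed with library totals (-0.026) and FPKM (-0.022 in all 3 settings), and ranged from -0.10 to 0.24. Replicate numbers do not pair these mice: deviations of same-numbered mice correlated at -0.46, -0.13 and 0.10. With the numbers as a replicate block 1267 genes were called, against 2404, and 4 of the 8. Genes called were 1330 with unfiltered log2(FPKM + 1) and 885 to 2396 without single mice, lowest without flox/flox replicate 2. Growth hormone and regulator genes called were 10 with DESeq2, 9 with a filter of 1 count and 2 with unfiltered FPKM, against 5 (4 to 6 without single mice). Male-biased genes called were 4 to 12 without single mice. Female-biased genes called were 11 with a filter of 1 count and 5 (2 higher, 3 lower) with at least 10 counts in every mouse, against 7. Secreted hepatocyte genes called were 5 with library totals, 5 and 6 with filtered log2(FPKM + 1) and log2(FPKM + 0.1), 0 unfiltered, and 0 to 6 without single mice, against 2. The summed *Mup* level had a log2 ratio of -1.65 over 6 genes without *Mup20* and *Mup3*, an alternative chosen after seeing the data, against -0.37. In other alternatives it was -0.52 to -0.12, and without single mice -0.75 to -0.09. *B4galt1* was called without hep-/- replicate 3 (-0.96) and with filtered FPKM (-0.67 and -0.73). Other causes were not tested. Counts of 7 in *Mup1* and *Mup7*, 2 in *Mup2* and 0 in *Mup8* limit the fold changes of hep-/- replicate 2.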
